A study of Mus musculus with 2 samples.

Results

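This is an account of 10 genes that control fuel use and respiration in the heart: Ppara, Ppard, Pparg, Rxra, Esrra, Esrrb, Esrrg, Ppargc1a, Ppargc1b and Tfam. They were taken as a list of names from 21938 protein-coding genes of the GENCODE M21 annotation (mouse genome build mm10). The study measured chromatin accessibility by DNase-seq, in which DNase I cuts DNA where chromatin is open, in the hearts of 14 day old males of the strain B6CASTF1/J. B6CASTF1/J is an F1 hybrid of the C57BL/6J and CAST/EiJ strains. There was 1 group of 2 biological replicates with no treatment and no control tissue, so no condition was compared and no p-value is given. The label of replicate 1 names 3 males, and the number of animals behind replicate 2 is not given.

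The PPARs (peroxisome proliferator-activated receptors) are nuclear receptors activated by fatty acids, and they bind DNA as pairs with the retinoid X receptor RXR at repeats of AGGTCA 1 base apart, the DR1 element. The ERRs (estrogen-related receptors) are relatives with no known natural hormone that bind an extended AAGGTCA site and drive genes of respiration. The coactivators PGC-1α (gene Ppargc1a) and PGC-1β (Ppargc1b) dock on both families. Tfam packages the mitochondrial genome and takes part in starting its transcription. Around birth the heart shifts from glucose and lactate to fatty acids, and several of these genes are known for that shift.

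For each gene the peaks and footprints that overlap its body and the 50 kb either side were collected, called its locus here. Peak signal is the authors' value, scaled by them for read depth, and has no unit. A footprint is a short stretch protected from cutting, deposited as a position alone, and some footprints lie outside the called peaks. A gene or start was called open where a peak lay within 1 kb in both replicates, and a region was called shared where merged peaks of both replicates met. The larger deposited peak sets held 143122 peaks in replicate 1 and 125118 in replicate 2, with 350009 and 335568 footprints. The read totals behind them are unknown.

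All 10 genes were open in both replicates, and so were 68.8% of all protein-coding genes. Their promoters covered a wide range. Esrra and Ppard were among the most accessible promoters of the genome, Tfam and Ppara were high, Ppargc1b and Rxra were near the middle of open genes, and Esrrg, Pparg, Esrrb and Ppargc1a were weak. The median over the 10 genes was 6.04, beside 2.86 over all protein-coding genes and 6.60 over the open ones. Of the 10, 5 lay above that last value. In bulk tissue, a weak peak in all cells and a strong peak in few cells cannot be told apart.

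Esrra, the gene of ERRα, had the strongest promoter, at 27.9 in replicate 1 and 19.9 in replicate 2 (mean 23.9 ± 5.72, SD, n = 2; 99.5th percentile of all protein-coding genes). Ppard (PPARδ) followed with 22.3 and 16.3 (19.3 ± 4.23, 97.5th percentile). Esrra was above Ppard within each replicate, though the ranges of these leading genes overlapped across replicates. Tfam gave 13.7 and 12.1 (12.9 ± 1.18, 86.8th percentile). Ppara (PPARα, the main PPAR of heart muscle) gave 11.4 in both (11.4 ± 0.0235, 82.5th percentile). Ppargc1b gave 6.87 and 7.48 (7.18 ± 0.433). Rxra, the shared partner, gave 4.67 and 5.14 (4.91 ± 0.338). From Ppard down to Rxra no gene's pair of values overlapped that of its neighbour in this order.

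The lower end was not fully ordered. Esrrg (ERRγ) gave 2.31 and 2.27 (2.29 ± 0.0269), Pparg (PPARγ, the fat cell regulator) gave 1.84 and 2.69 (2.26 ± 0.60), and Esrrb (ERRβ) gave 1.90 and 1.82 (1.86 ± 0.0568). The Pparg values lay on both sides of Esrrg and overlapped those of Esrrb, so its place among them was not resolved. Ppargc1a was lowest, at 1.08 in each replicate (39.7th percentile of all protein-coding genes and 12.4th percentile of open ones). Those matching values came from different peaks in the 2 replicates, which are given apart with the start sites. No promoter peak of the 10 genes also lay within 1 kb of a start of another protein-coding gene.

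**Figure D1:**
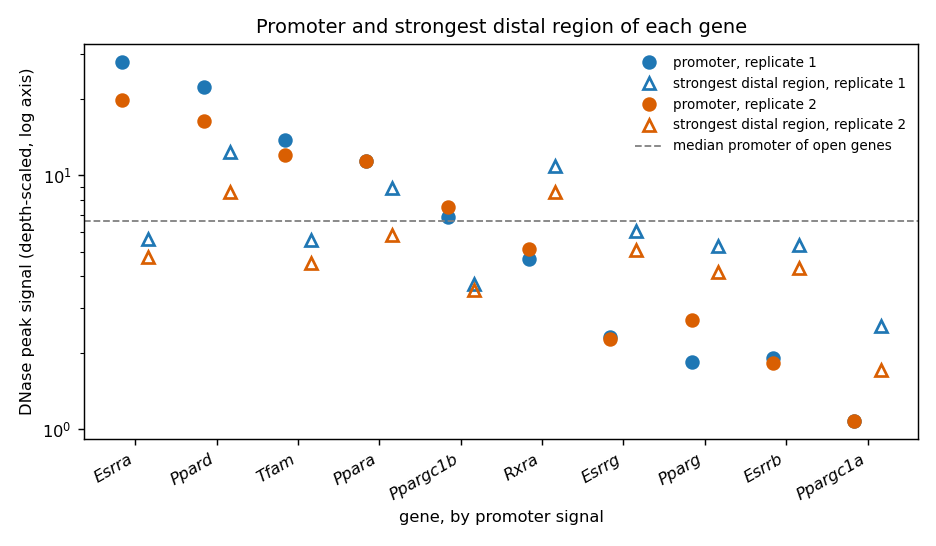
Promoter signal of each gene (filled circles) and its strongest shared region more than 1 kb from any protein-coding start (open triangles), on a log axis, in replicate 1 (blue) and replicate 2 (orange), with the median promoter of open genes as a dashed line. The promoters fall from 27.9 for Esrra to 1.08 for Ppargc1a, and from Rxra rightwards the triangles lie above the circles in both replicates.

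The promoter sequences of 5 of the genes are shown because they carry the contrast between strong and weak promoters. They are RefSeq windows of 300 bases (250 before the start, 50 after it; 9 of the 10 genes matched, with 16 windows) on the strand of the gene, build GRCm38.p6, which has the coordinates of mm10. The Ppargc1a window is read from the genome in the same way around the proximal GENCODE start. Capitals mark exact matches, on either strand, to the ERR core AAGGTCA, the longer ERR element TCAAGGTCA, the GATA site AGATAA, the NRF1 site CGCATGCG, the CREB site (CRE) TGACGTCA, the site CCGGAAG of ETS factors such as GABP, the SP site GGGGCGGGG, the TEAD site GGAATG, the E-box CACGTG, MEF2, DR1 with at most 1 mismatch, or CTCF. The CTCF pattern was CCA, any 2 bases, AG, any 2 bases, GGC, and it was added after values were seen. TCAAGGTCA holds AAGGTCA inside it, and the repeated unit of DR1 overlaps both.

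Esrra, chr19:6921759-6922058, minus strand, peak 27.9 and 19.9: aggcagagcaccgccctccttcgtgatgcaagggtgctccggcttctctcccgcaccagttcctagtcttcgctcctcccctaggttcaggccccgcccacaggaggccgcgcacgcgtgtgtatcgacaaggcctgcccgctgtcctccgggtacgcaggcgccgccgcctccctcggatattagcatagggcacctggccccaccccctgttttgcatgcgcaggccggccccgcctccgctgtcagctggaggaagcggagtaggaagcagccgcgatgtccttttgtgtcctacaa
Ppard, chr17:28232504-28232803, plus strand, peak 22.3 and 16.3: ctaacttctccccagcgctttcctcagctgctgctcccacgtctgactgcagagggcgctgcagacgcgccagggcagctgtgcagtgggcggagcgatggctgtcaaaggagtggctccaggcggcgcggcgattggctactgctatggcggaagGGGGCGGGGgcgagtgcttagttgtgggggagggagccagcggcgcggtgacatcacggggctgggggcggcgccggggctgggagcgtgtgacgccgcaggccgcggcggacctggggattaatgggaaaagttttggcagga
Tfam, chr10:71237995-71238294, minus strand, peak 13.7 and 12.1: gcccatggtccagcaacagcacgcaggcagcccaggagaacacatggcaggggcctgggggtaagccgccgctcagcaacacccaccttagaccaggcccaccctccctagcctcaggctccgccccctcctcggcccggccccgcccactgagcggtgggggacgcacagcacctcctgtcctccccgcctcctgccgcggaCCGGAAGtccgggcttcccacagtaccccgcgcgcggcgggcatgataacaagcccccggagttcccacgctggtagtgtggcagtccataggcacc
Ppara, chr15:85735526-85735825, plus strand, peak 11.4 and 11.4: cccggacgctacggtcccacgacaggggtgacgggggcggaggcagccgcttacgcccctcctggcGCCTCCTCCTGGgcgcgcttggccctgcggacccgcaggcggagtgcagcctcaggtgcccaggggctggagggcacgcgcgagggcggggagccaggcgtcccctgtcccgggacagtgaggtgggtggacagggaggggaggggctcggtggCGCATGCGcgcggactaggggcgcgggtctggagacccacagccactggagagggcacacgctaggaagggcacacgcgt
Ppargc1a proximal start, chr5:51553873-51554172, minus strand, peak 1.08 and 0.919: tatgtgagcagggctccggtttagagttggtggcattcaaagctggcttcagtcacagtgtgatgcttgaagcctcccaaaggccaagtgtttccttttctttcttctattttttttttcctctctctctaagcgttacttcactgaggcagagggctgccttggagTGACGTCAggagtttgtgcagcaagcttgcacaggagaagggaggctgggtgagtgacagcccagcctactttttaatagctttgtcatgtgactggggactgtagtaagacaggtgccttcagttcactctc

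The Esrra window held none of these matches. The SP match of Ppard began 94 bases before the start, and a footprint of each replicate covered all 9 of its bases (such a match stands in 11.4% of 32851 RefSeq promoter windows). The ETS match of Tfam began 47 bases before the start, also with all 7 bases inside a footprint in both replicates (8.86% of windows). In Ppara the NRF1 match began 30 bases before the start, with 5 of 8 bases in a footprint of replicate 1 and 8 of 8 in replicate 2 (1.87% of windows). Both of those footprints lay outside the called peaks, past the end of the strong Ppara peak, chr15:85735301-85735580. Its CTCF match met a footprint in replicate 2 alone (2.43% of windows). The CRE of Ppargc1a began 83 bases before the proximal start and met no footprint in either replicate (1.79% of windows). A match is a description of letters and not a bound site.

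CpG content varied among the promoters. The CpG ratio (observed over expected within 500 bases of the first start) was above the median of all protein-coding genes, 0.553, in 8 of the 10 genes. Pparg, with one of the weaker promoters, had the highest ratio at 0.946. Esrra had 0.724, Ppargc1b 0.720, Ppard 0.707, Tfam 0.684, Esrrg 0.662, Ppara 0.659 and Rxra 0.575. Esrrb at 0.284 and Ppargc1a at 0.228 were the genes below the median, and both stood at the low end of promoter signal. The promoter signal of Ppargc1a and of Esrrg came from a later group of starts, where the ratio was 0.176 and 0.733. The first start of Ppargc1a had no peak.

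The 10 genes have 54 distinct annotated starts, and 42 of them were open in both replicates; 58.0% of all starts of protein-coding genes were. Starts within 1 kb of the next one were joined into 26 groups, of which 16 were open, 1 had a peak in 1 replicate and 9 had none. Among the 16 groups downstream of a first start, 7 were open. None of the 9 groups without a peak held a footprint, and 8 of them held no base under the authors' false discovery rate of 0.05 in either replicate. The exception, an Rxra start at chr2:27710583, held 23 such bases in replicate 1. Of the 9 groups, 8 lay below the median CpG ratio and 10 of the 16 open groups lay above it.

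**Figure D2:**
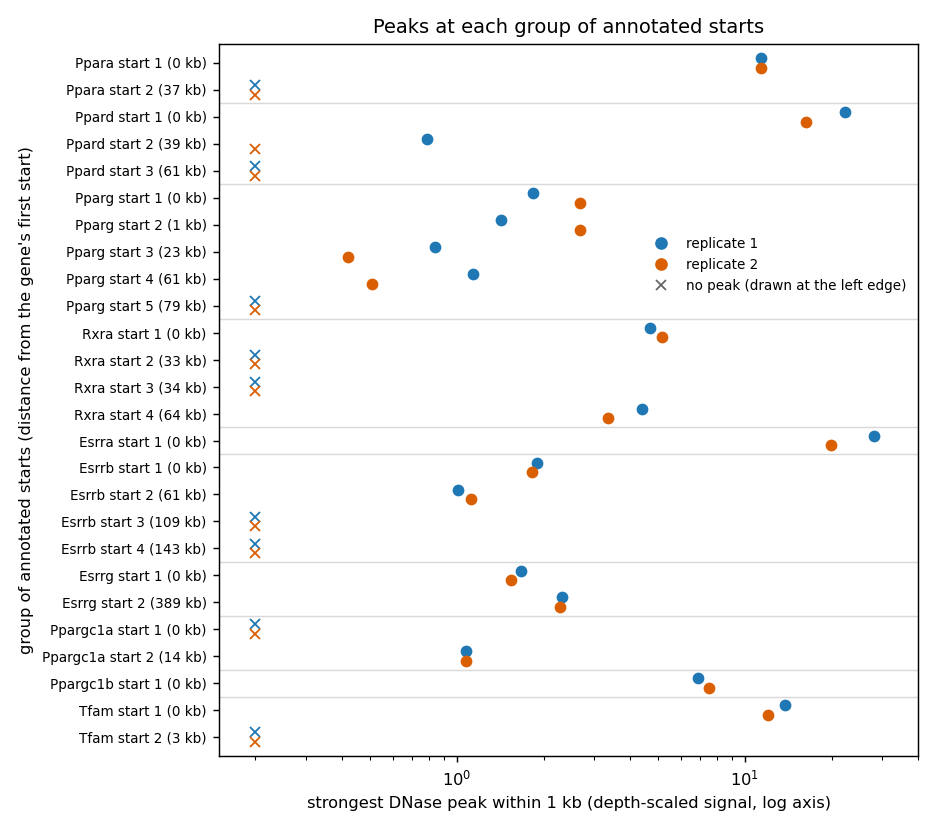
Strongest peak within 1 kb of each group of annotated starts, on a log axis, by replicate (blue 1, orange 2), with crosses at the left edge where no peak was present; each label gives the distance from the first start of the gene. Ppargc1a is the gene whose first group shows crosses. Pparg, Rxra, Esrrb and Esrrg show peaks of both replicates at more than 1 group, and the second Ppard group shows one of replicate 1 alone. The replicate 2 points of the first and second Pparg groups are the same peak, which reaches both.

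Ppargc1a is the coactivator gene with an upstream alternative promoter. That upstream start, chr5:51567726 on the minus strand, lay 13.8 kb before the proximal start and had no peak, no footprint and no base under a false discovery rate of 0.05 in either replicate. At the proximal start, chr5:51553922, the region chr5:51553741-51554060 gave 1.08 in replicate 1 and 0.919 in replicate 2, and it covers the CRE shown above. A second region 1.06 kb downstream of a start, chr5:51552541-51553084, gave 1.26 and 1.08. It holds an E-box met by a footprint of replicate 2 alone. Both proximal regions were weak, and they were the shared regions at the starts of this gene.

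Pparg has 5 groups of starts, of which 4 were open and all were weak. The first start, chr6:115360951, gave 1.84 and 2.69. The second group, at chr6:115362292-115362350, had its own region chr6:115362101-115362340 at 1.42 and 1.38. The start at chr6:115383699 had a peak centred 0.758 kb upstream of it, chr6:115382821-115383060, at 0.837 and 0.418. The start at chr6:115422066 had a peak 0.925 kb upstream of it, chr6:115421041-115421240, at 1.13 and 0.507. The last start, chr6:115439975, had none. The groups at chr6:115383699 and chr6:115422066 were higher in replicate 1 and the first was higher in replicate 2, while the order of the groups was the same in both.

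The 3 ERR genes differed in the peaks at their annotated starts. Which start is transcribed was not measured. Esrra has a single group of 5 starts under 1 strong peak, chr19:6921801-6922060. Esrrg was open at its first group, chr1:187608791-187609696, with 1.67 and 1.55, and more so at an internal group 389 kb downstream, chr1:187997827-187997868, with 2.31 and 2.27. Both replicates ranked the internal group above the first. Esrrb was open at its first start, chr12:86361117, with 1.90 and 1.82, and at chr12:86421644-86421883 with 1.01 and 1.12. Its starts at chr12:86470117 and chr12:86504409 had no peak.

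Rxra had a second open group far inside the gene, chr2:27740201, with 4.40 and 3.36, close to the 4.67 and 5.14 of its first group. Between them, chr2:27709292 and chr2:27710583 had no peak. The RefSeq window at the former, which holds the 1 AAGGTCA match among the 16 windows of these genes, met no footprint. Ppard was open at its first group alone. Its group at chr17:28271708-28272119 gave 0.787 in replicate 1 with nothing called in replicate 2, and no peak was present at chr17:28293246. The internal starts of Ppara (chr15:85772214) and Tfam (chr10:71235321) had no peak, and Ppargc1b has a single group, at chr18:61400431.

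The loci together held 291 merged regions, of which 205 were shared (70.4%, beside 65.9% over the genome). Replicate 1 alone gave 48, with a median signal of 0.550, and replicate 2 alone gave 38, with a median of 0.388. The highest region seen in a single replicate reached 1.31. Of the 205, 30 lay at starts of the 10 genes, 26 at starts of other genes, 74 in introns, 6 in exons and 69 outside the gene bodies. The 149 regions away from all protein-coding starts had a median signal of 1.19, beside 0.831 for the 76148 such regions of the genome. Both replicates had 102 of the 149 (68.5%) in the smaller peak set, beside 62.7% of all such regions, and 104 (69.8%) held a shared footprint, beside 67.5%. These shares were near the background.

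Esrra had the densest locus, with 18.9 shared regions per 100 kb (95th percentile of protein-coding genes), and 13 of its 21 shared regions lay at starts of other genes. Rxra came next with 17.7, none of them at another gene's start. Its 15.5 distal regions per 100 kb stood at the 99th percentile. Ppard had 16.6, Ppara 14.3 and Ppargc1b 10.9, of which the last 2 had 10.1 and 9.89 distal regions per 100 kb. Pparg with 8.72 and Tfam with 7.98 were near the median of 6.69 over all protein-coding loci. Esrrb had 5.37, Ppargc1a 4.22 and Esrrg 3.54. Ppargc1a had 9 shared regions in 213.5 kb and 0 in its introns or exons away from the starts, while Ppargc1b had 16 intronic regions in 202.3 kb. These are counts of regions near a gene, and which gene a region acts on was not measured.

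**Figure D3:**
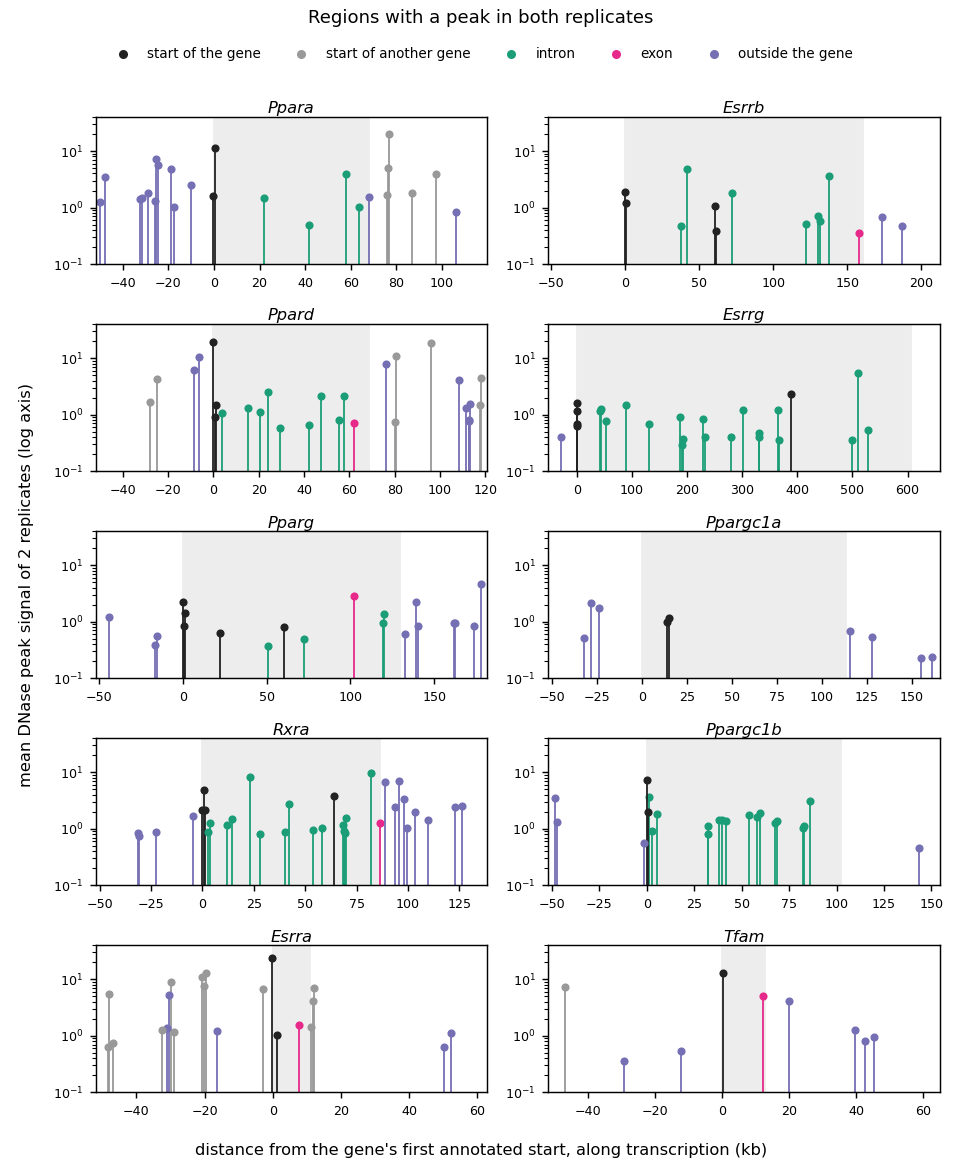
Every shared region of the 10 loci by its distance in kb from the first annotated start, along the direction of transcription, against its mean signal over 2 replicates on a log axis; the gene body is shaded and colours give the class of region. Rxra and Ppargc1b are filled with intronic regions, the body of Ppargc1a holds no shared region away from its starts, and the tallest Esrrg region lies 509.5 kb into the gene.

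In 5 of the 10 genes the strongest distal region exceeded the promoter in both replicates, and in 28.6% of all open protein-coding genes it did. These were Pparg, Rxra, Esrrb, Esrrg and Ppargc1a. By mean signal the distal region stood at 2.58 times the promoter in Esrrb, 2.42 times in Esrrg, 2.09 times in Pparg, 1.98 times in Rxra and 1.97 times in Ppargc1a. In the other genes the ratio was 0.647 for Ppara, 0.541 for Ppard, 0.506 for Ppargc1b, 0.39 for Tfam and 0.218 for Esrra. The strongest distal regions of the 10 genes ranged from the 83.4th to the 99.5th percentile of all shared distal regions.

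The sequences of 5 strong distal regions follow, one per gene, because they are among the strongest near a PPAR, the RXR partner, ERRs and a coactivator; that of Esrrb is its second strongest, shown for its MEF2 match. They are the whole shared regions, or the central 300 bases, on the strand of the gene, and capitals mark the same matches as above.

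Ppard, chr17:28226161-28226340, plus strand, peak 12.3 and 8.56: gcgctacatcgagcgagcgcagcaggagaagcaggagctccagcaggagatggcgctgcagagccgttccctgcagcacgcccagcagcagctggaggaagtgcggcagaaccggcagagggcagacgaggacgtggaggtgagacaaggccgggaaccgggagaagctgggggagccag
Rxra, chr2:27758501-27758660, plus strand, peak 10.9 and 8.56: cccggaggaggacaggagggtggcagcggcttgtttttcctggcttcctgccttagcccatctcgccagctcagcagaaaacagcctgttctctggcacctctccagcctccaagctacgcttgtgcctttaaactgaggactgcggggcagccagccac
Esrrg, chr1:188118241-188118420, plus strand, peak 6.04 and 5.07: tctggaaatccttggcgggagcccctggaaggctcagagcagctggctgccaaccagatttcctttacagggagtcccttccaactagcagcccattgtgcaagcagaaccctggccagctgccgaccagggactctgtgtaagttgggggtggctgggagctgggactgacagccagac
Esrrb, chr12:86498861-86499100, plus strand, peak 4.68 and 2.49: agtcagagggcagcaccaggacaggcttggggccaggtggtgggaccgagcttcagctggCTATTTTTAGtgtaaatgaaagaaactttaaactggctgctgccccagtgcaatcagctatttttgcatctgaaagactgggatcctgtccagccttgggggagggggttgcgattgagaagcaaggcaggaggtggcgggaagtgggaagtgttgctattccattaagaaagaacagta
Ppargc1a, chr5:51595681-51595980, minus strand, peak 2.55 and 1.71: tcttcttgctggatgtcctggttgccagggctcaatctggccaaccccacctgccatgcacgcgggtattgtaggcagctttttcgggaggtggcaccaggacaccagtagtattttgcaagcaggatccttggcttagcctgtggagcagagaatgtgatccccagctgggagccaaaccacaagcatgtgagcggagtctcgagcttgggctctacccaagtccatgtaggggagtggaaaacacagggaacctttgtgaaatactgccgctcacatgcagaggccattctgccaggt

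The Ppard region lay 6.45 kb upstream of the first start, with its midpoint in a coding exon of the neighbouring gene Def6, and reached 12.3 and 8.56. A second one in a non-coding part of Def6, chr17:28224081-28224380, gave 6.96 and 5.52. The Rxra region lay in an intron 82.1 kb into the gene. Rxra had 2 others nearly as strong, chr2:27699601-27699800 at 9.26 and 6.99 in an intron and chr2:27772001-27772180 at 8.40 and 5.73 beyond the 3′ end. Each of these exceeded every promoter region of Rxra in both replicates.

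The Esrrg region lay in an intron 120.5 kb past the internal start and gave 6.04 and 5.07. The next strongest Esrrg region reached only 1.68 and 1.22. In Esrrb, the region shown is intronic, lies 5.43 kb before an annotated start that had no peak, and carries a MEF2 match that met no footprint. MEF2 matches stood in 0.917% of all shared distal regions and in 2 of the 149 here. For Ppargc1a the strongest regions lay 28.1 kb and 24.0 kb upstream of the upstream start. The first gave 2.55 and 1.71 and the second, chr5:51591621-51591820, gave 2.11 and 1.37, so both exceeded the proximal promoter in each replicate.

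Ppargc1b had its strongest distal region 1.35 kb inside the gene, chr18:61398881-61399280, at 3.74 and 3.53. A weaker intronic region, chr18:61397581-61398100 with 1.08 and 0.782, overlaps the microRNA gene Mir378a, which lies inside Ppargc1b. The Ppara locus held a run of strong regions upstream of the gene. The strongest, chr15:85709421-85709600, gave 8.91 and 5.80 at 25.5 kb upstream, and chr15:85710301-85710480 gave 6.18 and 5.07. Another, chr15:85705941-85706280, with 2.22 and 1.40, lay 0.323 kb from the microRNA gene Mirlet7c-2. In Pparg a coding exon held chr6:115463001-115463220 at 3.18 and 2.55, above all its promoter peaks in replicate 1 but below the 2.69 of the first start in replicate 2. The strongest distal region of Tfam, chr10:71226001-71226180 with 5.55 and 4.52, lay in an untranslated part of an exon, and that of Esrra, chr19:6952141-6952380 with 5.62 and 4.78, lay 30.4 kb upstream.

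Several of the strongest distal regions carried the CTCF pattern. CTCF is a zinc finger protein of chromatin loops and domain borders. The pattern stood in 7 of the 30 regions that make up the 3 strongest per gene, in 8 of the 15 that fell in the top 5% of all shared distal regions, and in 14 of all 149. Over the genome it stood in 30.4% of the top 5% and in 12.3% of all shared distal regions. Footprints of replicate 1 that hold 6 of these matches whole are shown with the 10 bases either side, plus strand, capitals marking the pattern.

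Ppara, chr15:85709500-85709532: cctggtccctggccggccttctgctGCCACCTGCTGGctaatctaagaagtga
Ppara, chr15:85716198-85716227: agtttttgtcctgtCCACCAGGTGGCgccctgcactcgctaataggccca
Ppard, chr17:28308997-28309043: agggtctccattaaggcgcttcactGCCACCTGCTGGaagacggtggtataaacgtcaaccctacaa
Pparg, chr6:115539064-115539093: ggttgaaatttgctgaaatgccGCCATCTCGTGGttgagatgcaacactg
Rxra, chr2:27765103-27765134: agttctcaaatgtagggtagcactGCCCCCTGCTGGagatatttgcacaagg
Esrrb, chr12:86402913-86402945: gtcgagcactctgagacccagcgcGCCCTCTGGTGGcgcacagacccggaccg

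Replicate 2 had a footprint over each of these within 2 bases of the same ends. The regions around them gave 8.91 and 5.80, 5.11 and 4.36, 9.67 and 5.92, 5.28 and 4.16, 7.69 and 5.72, and 5.29 and 4.30 in the order shown. The match in the Rxra region chr2:27699601-27699800 is not shown, since footprints covered 2 of its 12 bases in replicate 1 and 3 in replicate 2. The 6 shown are examples and not every match in these loci that a footprint holds whole. Binding by CTCF was not measured.

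The receptors' own sites were rare at the footprints of these loci. There were 719 footprints in replicate 1 and 691 in replicate 2, and 351 of the former (48.8%) were covered to at least 50% in replicate 2, beside 49.6% over the genome. With 10 bases added either side, AAGGTCA or DR1 was found at 3 footprints of replicate 1 and 2 of replicate 2, which is 0.353% ± 0.0904 (SD, n = 2), beside 0.455% of all 685577 footprints. TCAAGGTCA stood in 0 and DR1 in 0; over the genome they stood in 0.0392% and 0.0370%. In the central 200 bases of distal regions AAGGTCA stood in 7 of 149 (4.70%), beside 4.27% of all shared distal regions. These shares were near the background.

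An AAGGTCA footprint of Ppara and one of Pparg are shown because the ERR core lies in or beside them. They have 10 bases either side, plus strand, with the match in capitals.

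Ppara, chr15:85798890-85798899, replicate 2: aacTGACCTTgcctggccttggcatagacc
Pparg, chr6:115501338-115501344, replicate 1: tgaggccggaTGACCTTgggcaggact

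The Ppara match lay in an intron, in a region of 1.10 and 0.943, and ended just before the footprint, in the added bases. The match beyond Pparg, in a region of 0.872 and 0.806, lay inside its footprint. Neither of these footprints was covered by a footprint of the other replicate. The pair is an example and not the full set.

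Signal in the loci was higher in replicate 1, as over the genome. Over the 205 shared regions the log2 ratio (replicate 1 over replicate 2) had a median of 0.30, with 170 higher in replicate 1, beside 0.31 over all 104208 shared regions. At the 30 regions of the genes' own starts it was 0.05, with 19 higher in replicate 1, and at the 149 distal regions 0.33, with 131 higher. Over the genome the promoter median was 0.20 and the distal one 0.35. Among loci, Ppargc1a had all 9 regions higher in replicate 1 (median log2 ratio 0.49) and Esrrg had 14 of 25 (0.09). The cause of the replicate difference was not tested.

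**Figure D4:**
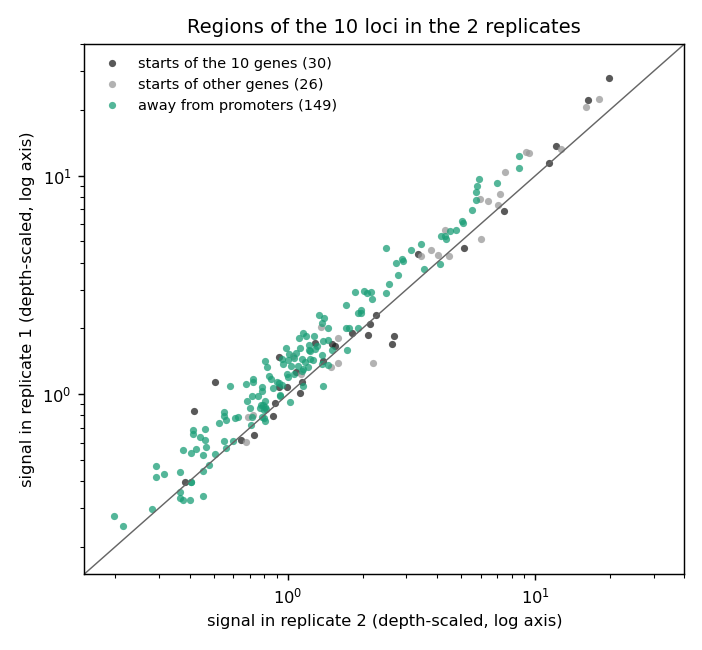
Signal of each shared region of the 10 loci in replicate 2 (x axis) and replicate 1 (y axis), both on log axes, with the line of equality; colours separate starts of the 10 genes, starts of other genes and distal regions. Most distal points lie above the line (131 of 149), and those at the genes' own starts lie on both sides of it.

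The partners and targets of these regulators were then read in 4 lists, which were chosen with earlier results of these data known. Together 83 of 86 genes were open in both replicates, beside the 68.8% of all protein-coding genes. The count was 70 when peaks at starts of more than 1 protein-coding gene were left out. The 68.8% keeps such peaks, and no share of all genes without them is given here. Of the 24 coregulators and partners, 23 were open, led by Rxrb (RXRβ) at 21.8 and 19.6, under a peak shared with Slc39a7, and Ncoa2, a p160 coactivator, at 24.8 and 16.3, which were not in the same order in both replicates. The acetyltransferase gene Ep300 followed at 13.6 and 12.7. Rxrg (RXRγ) was low at 1.7 and 1.32, below Rxra in both replicates. Hnf4a, a liver and gut receptor, had no peak. All 15 genes of mitochondrial genome upkeep were open, led by Yy1 (18.7 and 17.2), Tfb2m (20.1 and 15.1, shared with Cnst) and Polg, the mitochondrial DNA polymerase (mean 17.4 ± 3.72, SD, n = 2).

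All 20 ERR and PGC-1 target genes of respiration were open, with a median signal of 12.4. Sod2 (23.1 and 18.6), Cycs, the cytochrome c gene (23.1 and 18.3), and Idh3a of the citric acid cycle (21.8 and 16.7) were highest. The list is broader than its name and includes genes that do not themselves act in respiration, Sod2 among them. Of the 27 PPAR target genes of fatty acid use, 25 were open, with a median of 3.81. Acadm, of medium-chain fatty acid oxidation (17.5 and 14.7), and Angptl4, an inhibitor of lipoprotein lipase (14.4 and 9.86), were among the highest. Fgf21 had a peak in replicate 2 alone (0.794) and Cidec had none.

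**Figure D5:**
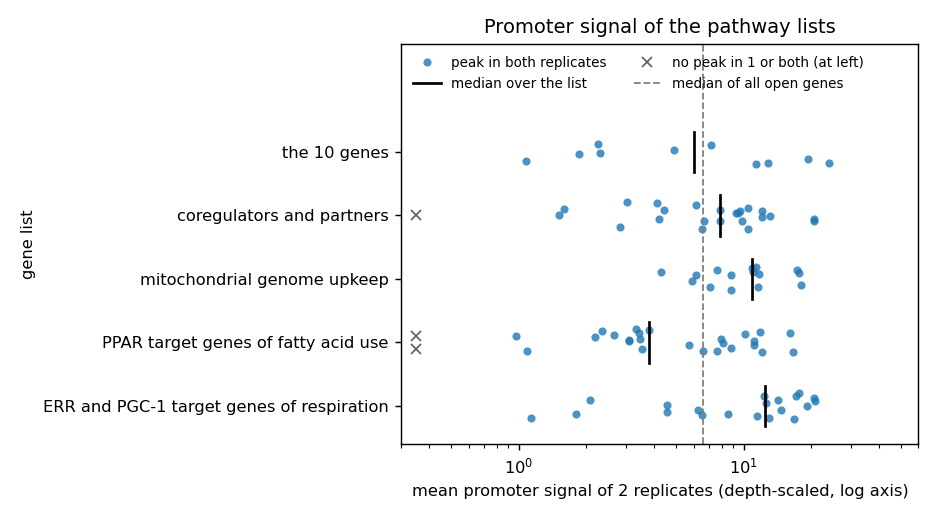
Mean promoter signal over 2 replicates, on a log axis, of the 10 genes and of the 4 lists, one point per gene open in both replicates, with crosses at the left edge for genes without a peak in 1 or both, the median of each list as a bar and the median of all open genes as a dashed line. The median over all genes of the list is 12.4 for respiration and 3.81 for fatty acid use. The dashed line at 6.60 covers open genes alone, and the median over all protein-coding genes is 2.86.

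Marker genes were read in the same way to check the tissue, beside the 68.8% of all protein-coding genes that were open. The lists differ in length, so their sums are not on a like footing. The median over the list was 2.27 for heart muscle and 2.53 for endothelium, both below the 2.86 over all protein-coding genes. It was 1.47 for neurons, 0.524 for leukocytes and 0.0603 for fat. All 10 heart muscle markers and all 8 endothelial markers were open, with summed promoter signal of 33.1 and 24.8 for heart muscle and 24.7 and 20.8 for endothelium. Of the leukocyte markers 5 of 8 were open, at sums of 4.81 and 3.98, with no peak at Ptprc or Csf1r. Of the fat markers 3 of 8 were open (Plin1, Cidea and Fabp4), at sums of 9.04 and 7.97. Adipoq, Lep, Retn and Cidec had no peak and Ucp1 had 0.241 in replicate 1 alone. Of the neuronal markers 3 of 6 were open (Snap25, Rbfox3 and Syn1), at sums of 13.6 and 11.0, above those of fat and leukocytes. None of the liver markers was open (0 of 6). The part of each cell type in the peaks of the 10 genes, Pparg included, was not tested.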

How the data were processed

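DNase-seq of heart tissue from B6CASTF1/J males was used, 1 group with 2 biological replicates. Per the file headers, the deposited peaks, footprints and per-base calls of each replicate came from that replicate's filtered alignment to mm10; peak caller, versions and the treatment of CAST/EiJ reads: not given in the sources used here. The deposited peak signal was scaled for depth by the authors, by a step not described further. The deposited p-value column of the per-base files holds false discovery rates under 0.05. The constant number beside each deposited footprint was not used.

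Peaks of the larger set were joined across replicates where they overlapped or touched; the values per region are each replicate's highest signal. Starts came from GENCODE M21, sequences from GRCm38.p6 and RefSeq. A footprint was shared where at least 50% of it was covered. Genes named are all 10 regulators, the 3 strongest regions per locus more than 1 kb from any protein-coding start, genes sharing a promoter peak, and per list the 3 highest and those with no peak; Rxrg was added after its values were seen. A gene and a site that these rules name are not reported here. The members and lists were chosen with earlier results of these data known. Means carry an SD over 2 replicates, which may share technical error; read depth is unknown, so no interval is given. Alternatives changed the start window, the starts used, the peak set, the flank, the footprint overlap and the motif padding, and left out each replicate. Scripts ran in Python 3.11.15 with numpy 2.4.6 and were tested on simulated data.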

Additional observations from a re-analysis of the deposited data

How the results depend on the processing

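Of 50 alternative values of the summary results, 39 stayed within 1.5 times the main count, or within 1 SD of the main value, and 11 did not. Some of these outcomes were limited in advance. Leaving out a replicate or widening the start window could only keep or raise a count that needs both replicates. The motif share of 1 replicate always lies within 1 SD of the mean of 2. Among these results the log2 ratio alone has a direction, and it stayed positive. The count of open genes was 10 under each alternative except the first annotated start alone, which gave 9, without Ppargc1a. The count of open starts fell from 42 to 38 within 500 bases. Fewer bases searched gave fewer features: shared regions fell from 205 to 131 with 10 kb either side and to 107 in gene bodies alone, and shared footprints from 351 to 205 and 143. Shared footprints were 126 where the whole footprint had to be covered, and a single replicate holds 691 to 719. The share of footprints with a nuclear receptor motif, 0.353%, rests on 5 footprints. It was 0.121% with 10 kb either side and 0.157% in gene bodies. With no added bases it was 0.0695%, and with 20 bases either side 0.779%. The 0.455% of all footprints was taken with 10 bases either side. No genome share is given for the other 2 paddings, so those values cannot be read against a background. Among single genes, Esrrg gave 1.61 at its first start, and Ppargc1a gave 0.999 in the smaller peak set, within 500 bases, and at starts of protein-coding transcripts, and 1.17 within 2 kb. No paired comparison of conditions was possible because there is 1 group. Genes, starts and regions were compared within each replicate. With 2 replicates and unknown depth, small differences between weak peaks could not be resolved.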
